A study of Mus musculus with 8 samples.

Results

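Bulk RNA-seq counts of 8 genes that mark basal or stem and progenitor epithelium of the mouse prostate (Trp63, Itga6, Itgb4, Ly6a, Psca, Prom1, Cd44 and Bmi1) were followed from normal tissue to carcinoma. The genes were chosen by symbol, keratins left aside, from a table of 27036 genes, and all 8 were among the 14034 genes that passed the filter on low counts. RNA came from 3 WT prostates (labelled WT-control), 3 prostates with prostatic intraepithelial neoplasia (PIN) and 2 prostatic adenocarcinomas (PCa), with ribosomal RNA removed before library preparation. The PIN and PCa mice carry a floxed human transgene and the mTmG reporter at Rosa26, which Cre driven by the Osr1 promoter switches in a subpopulation of prostatic progenitor cells and their descendants. The study describes the controls as WT mice matched in sex and age and, for the bulk data, gives their genotype as R26 mTmG/+:Osr1 Cre/+, so that Osr1 Cre and the mTmG reporter would be shared by all groups; the labels say only WT, and the ages of these animals are not given in the sources used here. The lesions were picked under the microscope for a high content of atypical or tumor cells. The mice were of mixed C57BL/6 and 129S1/SvImJ background. Each library has its own sample number in the labels and was read as a separate animal, and the transgene, being human, has no row in the count table, so it could not be used to check the labels.

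Prostatic glands have a luminal layer that secretes and a basal layer that sits on the basement membrane. Basal nuclei carry p63, the product of Trp63, a transcription factor that basal cells of stratified and glandular epithelia depend on. Integrin alpha 6 (Itga6) pairs with integrin beta 4 (Itgb4) to anchor basal cells through hemidesmosomes, and alpha 6 is used in sorting mouse prostate basal cells. Ly6a encodes Sca-1, a cell surface protein with a GPI anchor that marks regenerating cells of the proximal ducts in the mouse. Psca encodes prostate stem cell antigen, a related GPI-anchored protein; Prom1 encodes CD133, a membrane protein of cell protrusions; Cd44 encodes a receptor for hyaluronan; and Bmi1 encodes a subunit of Polycomb repressive complex 1 that supports self-renewal.

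Of the 8 genes, Ly6a alone passed the test, in PCa against WT, where 8.54% of all tested genes passed. Ly6a was 13.5-fold higher in PCa (log2 fold change 3.75 ± 0.74 SE, 3 WT and 2 PCa libraries). Psca, Prom1 and Cd44 also had no overlap between WT and PCa libraries, Psca and Cd44 being above WT and Prom1 below it, but their adjusted p-values lay over the threshold, and 37.3% of all tested genes had no overlap in this comparison. Trp63, Itga6, Itgb4 and Bmi1 had overlapping values in PCa and WT. The promoter-side sequences of the 4 genes without overlap are printed first, since these genes are described at most length below. Each is the 250 bases before the gene's 5′ end in the table, read from mm9, 5′ to 3′ on the gene's strand, and capitals mark a match to the TATA box letters TATAAA or their reverse complement TTTATA, a motif chosen after earlier results were known.
Ly6a, chr15:74828065-74828314, minus strand: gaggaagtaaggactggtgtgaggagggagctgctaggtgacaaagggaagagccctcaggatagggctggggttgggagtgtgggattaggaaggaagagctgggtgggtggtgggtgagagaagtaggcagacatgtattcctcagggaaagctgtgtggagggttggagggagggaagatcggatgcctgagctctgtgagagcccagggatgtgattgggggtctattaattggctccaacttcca
Psca, chr15:74545019-74545268, plus strand: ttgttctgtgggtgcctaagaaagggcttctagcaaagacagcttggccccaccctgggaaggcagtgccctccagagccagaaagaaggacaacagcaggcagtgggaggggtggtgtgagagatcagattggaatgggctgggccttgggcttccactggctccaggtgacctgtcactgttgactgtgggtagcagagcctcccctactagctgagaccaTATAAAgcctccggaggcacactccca
Prom1, chr5:44493272-44493521, minus strand: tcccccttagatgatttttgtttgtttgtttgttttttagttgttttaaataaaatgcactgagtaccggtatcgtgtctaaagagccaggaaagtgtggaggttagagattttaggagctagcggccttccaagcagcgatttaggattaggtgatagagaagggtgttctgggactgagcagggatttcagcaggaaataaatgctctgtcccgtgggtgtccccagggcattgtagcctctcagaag
Cd44, chr2:102741823-102742072, minus strand: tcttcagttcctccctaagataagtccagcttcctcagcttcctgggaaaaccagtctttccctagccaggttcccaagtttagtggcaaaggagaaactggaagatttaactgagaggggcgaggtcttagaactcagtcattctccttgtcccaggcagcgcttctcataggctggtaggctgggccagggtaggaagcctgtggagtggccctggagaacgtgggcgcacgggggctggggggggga

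The TATA box letters were found once before Psca, starting 27 bases before the gene. They were in none of the windows of Ly6a, Prom1, Cd44, Trp63, Itga6, Itgb4 and Bmi1. Over windows of the same length, 3272 of 26711 genes (12.25%) held them, so 1 of 8 is a description of these windows only. The STAT motif TTCNNNGAA, the same on both strands, was in 0 of the 8 windows and in 6.956% of all. Psca and Ly6a belong to the same protein family and lie on chromosome 15 (mm9), Psca at chr15:74545269-74547493 on the plus strand and Ly6a at chr15:74825308-74828064 on the minus strand, with 277814 bases between them.

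**Figure D1:**
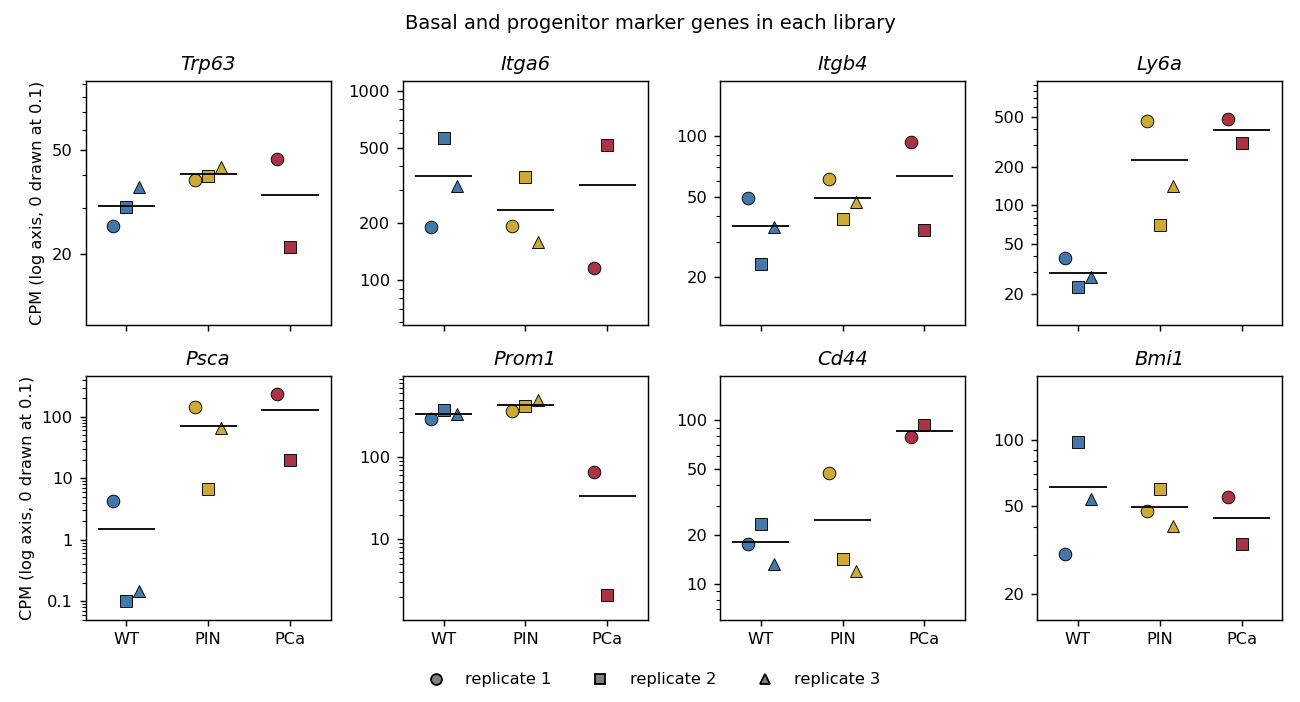
Level of each of the 8 genes in every library, in CPM on a log axis whose range differs between panels, with symbols for replicate numbers and a line at the group mean. Ly6a, Psca and Cd44 lay above all WT libraries in both PCa libraries and Prom1 below them, and the other 4 genes overlapped.

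Levels are given in CPM, which sets each count against the size of its library, with sizes adjusted by edgeR's trimmed mean of M-values. The total counts on genes ranged from 21751803 to 29730420 per library. A gene was called when its absolute log2 fold change was above 1 with an adjusted p under 0.05 in edgeR's quasi-likelihood test, adjusted over all tested genes. In PCa against WT, 1 of the 8 genes was called, against 8.54% of all tested genes (4.35% higher and 4.18% lower). In PCa against PIN, none was called, against 5.72% of all (2.55% higher and 3.17% lower); in PIN against WT, none was called, against 0% of all. At an unadjusted p under 0.05, 4 of the 8 passed in PCa against WT (3866 of all 14034 genes), 2 in PCa against PIN (3205) and 2 in PIN against WT (492). DESeq2 called 4, 2 and 1 of the 8, and 2487, 1984 and 39 of all genes. The median log2 fold change of the 8 genes was 0.48 for PCa over WT, 0.40 for PCa over PIN and 0.42 for PIN over WT, beside 0.01, 0.07 and -0.02 over all tested genes. The 3 comparisons share libraries, so their values are not independent. With few libraries, absence of overlap is common here: it held for 37.3% of all tested genes in PCa against WT (4 of the 8 genes), 44.3% in PCa against PIN (2 of the 8) and 12.9% in PIN against WT (3 of the 8). The sample numbers in the labels fall into 3 series, WT 1 alone, WT 2 with WT 3, and all lesion libraries, so a batch effect of these series and an effect of the lesion cannot be told apart where WT is compared.

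Markers of other cells differed between the libraries. The summed CPM of 8 stromal markers, among them smooth muscle actin and calponin, was 1637 to 4188 in WT, 2873 to 5053 in PIN, 311 in PCa 1 and 82.8 in PCa 2, with 4 of 8 (Acta2, Myh11, Des and Cnn1) called lower in PCa. The 8 luminal markers summed to 51046 to 91394 in WT and 44926 to 68470 in PIN, and to 5833 and 2421 in PCa 1 and PCa 2, mainly through the secretory genes Pbsn and Tgm4, which were called lower, while Fkbp5 was called higher. Seminal vesicle genes summed to 15663 in WT 1, 0.634 in WT 2 and 0.769 in WT 3, to 43.9 to 88.7 in PIN, and to 3840 and 883 in PCa, with 0 of 6 called in any comparison. In bulk tissue, fewer cells of a type and less RNA per cell cannot be told apart, and this holds for each level below. The part of tissue makeup in these results was not tested.

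**Figure D2:**
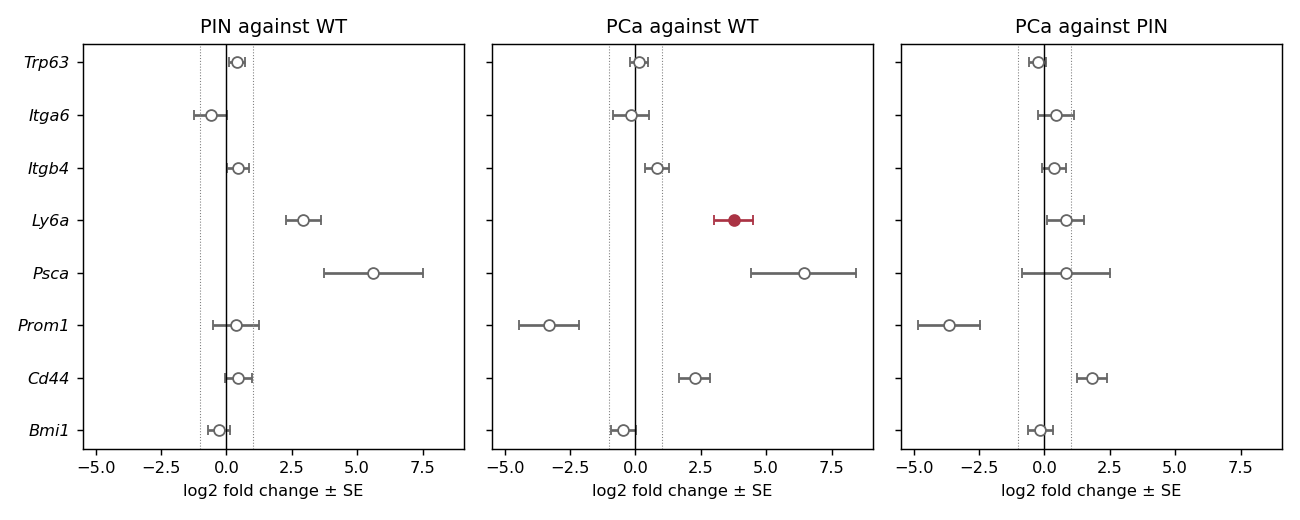
Fitted log2 fold change of each gene with its SE in the 3 comparisons, with dotted lines at the fold limits of -1 and 1. The filled red point is the 1 called value, Ly6a in PCa against WT at 3.75; open points are values that were not called.

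None of the 3 basal identity genes was called in any comparison, and none separated PCa from WT. Trp63 (chr16:25683849-25892188, plus strand) was at 25.5, 30.2 and 36.2 CPM in WT 1, 2 and 3, at 38.3, 39.8 and 42.9 CPM in PIN 1, 2 and 3, and at 46.0 and 21.3 CPM in PCa 1 and 2. The PIN libraries all lay above the WT libraries, whereas the tumors held the highest and the lowest value of the series. Relative to WT, the log2 fold change was 0.40 ± 0.30 (SE) for PIN and 0.14 ± 0.33 for PCa (adjusted p = 1 and 0.824, edgeR). Leaving out PCa 1 turned the latter to -0.51.

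Itga6 (chr2:71583673-71696473, plus strand) was at 191, 562 and 313 CPM in WT, at 194, 351 and 159 CPM in PIN and at 115 and 519 CPM in PCa. PCa 1 was again at one end of the series, here the lowest, and PCa 2 was near the highest WT library. Itgb4 (chr11:115836023-115869726, plus strand), its hemidesmosomal partner, went the other way between the tumors, at 92.7 CPM in PCa 1 and 34.1 CPM in PCa 2, with 49.0, 23.2 and 35.5 CPM in WT and 61.3, 38.7 and 47.0 CPM in PIN. Neither was called in any comparison; in PCa against WT the log2 fold changes were -0.17 ± 0.70 (SE) for Itga6 and 0.82 ± 0.46 for Itgb4 (adjusted p = 0.907 and 0.297, edgeR). Without PCa 1 they were 0.56 and -0.06, and without WT 2 that of Itga6 was 0.33.

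Beta 4 pairs with alpha 6 only, while alpha 6 can also pair with beta 1, so the ratio of the transcripts was followed per length. In TPM, which divides counts by exon length before scaling to a common total, Itga6 exceeded Itgb4 by 3.03-, 18.8- and 6.85-fold in WT 1, 2 and 3 and by 2.46-, 7.06- and 2.62-fold in PIN 1, 2 and 3. The ratio was 0.966 in PCa 1 and 11.8 in PCa 2. The tumors thus stood at different ratios, 1 below and the other within the WT range, with no test made of a ratio of this kind. Both genes overlap antisense genes, Gm17250 for Itga6 and B230344G16Rik for Itgb4, which held 58 and 27 counts over all 8 libraries.

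Of 10 other genes of hemidesmosomes, laminin-332 and laminin-binding integrins, 0 were called in any comparison, and their median log2 fold change in PCa against WT was 0.00. Within the list the tumors differed. PCa 1 was above all WT libraries for 5 of the 10 and below them for 3, while PCa 2 was above them for 0 and below them for 7. Of the 10, 9 were lower in PCa 2 than in PCa 1, with a median difference of -3.14 on the log2 scale. Over all tested genes the median gap between the tumors, without its sign, was 0.61. The share of all tested genes outside the WT range in a single tumor was not computed, so these counts describe the listed genes only. Col17a1, the hemidesmosomal collagen, was at 18.4 to 30.4 CPM in WT, 25.0 to 37.5 CPM in PIN, 135 CPM in PCa 1 and 0.377 CPM in PCa 2. Dst, whose epithelial form is a hemidesmosomal plaque protein, was at 331 to 885 CPM in WT, 423 CPM in PCa 1 and 31.7 CPM in PCa 2. Itga2, a collagen and laminin receptor subunit, was at 1.10 to 3.67 CPM in WT, 40.2 CPM in PCa 1 and 1.13 CPM in PCa 2, and Lama3, a chain of laminin-332, was at 104 to 129 CPM in WT, 86.0 CPM in PCa 1 and 5.93 CPM in PCa 2.

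The basal keratins parted from Trp63 in PCa 2. Krt5, Krt14, Krt15 and Krt17 summed to 144 to 212 CPM in WT, 139 to 345 CPM in PIN, 564 CPM in PCa 1 and 6.72 CPM in PCa 2. In PCa 2 all 4 were below every WT library, a count that likewise has no share over all tested genes beside it. Trp63 was lower there as well, but at 21.3 CPM it was 2.16-fold below PCa 1, and Itgb4 at 34.1 CPM was inside the WT range. None of the 4 keratins was called, Krt15 having the largest log2 fold change in PCa against WT at 1.26 ± 1.46 (SE) and Krt17 the lowest at -1.62 ± 1.51.

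**Figure D3:**
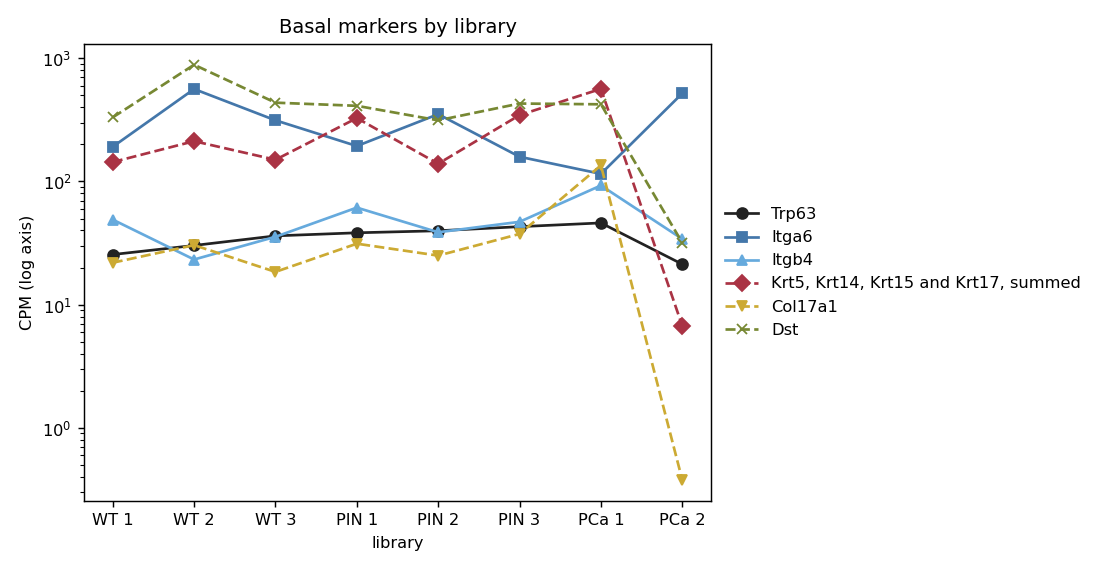
Basal genes by library in CPM on a log axis, where lines join libraries only to help follow a gene. In PCa 2 the summed keratins (6.72 CPM), Col17a1 (0.377 CPM) and Dst (31.7 CPM) were far below all other libraries, unlike Trp63 (21.3 CPM), Itga6 (519 CPM) and Itgb4 (34.1 CPM), while in PCa 1 Itga6 alone of these was below the WT libraries.

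Genes of related roles were taken from 6 lists with 65 tested genes. Of these, 8 were called for PCa against WT and 3 against PIN. Among the 8 were Spp1 and Cdkn2a, and among the 3 Spp1, which passed the filter only through the PCa libraries, where they are high, so nothing is read from these counts against the share of all genes called (8.54% and 5.72%). The counts rested on few libraries and on the tool: against WT, 2 were called without WT 3 or without PIN 3, 3 in a model of these groups alone, 4 without WT 1 or without PIN 1, and 18 with DESeq2 or without PCa 1, while of the 7 called without PCa 2 only 1 was among the 8. Against PIN, 0 were called without PIN 2 or PIN 3, 1 without WT 3 or PIN 1, 7 without WT 2 or PCa 2, 12 with DESeq2 and 14 without PCa 1. Each call of a list gene below stands under that limit.

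Relatives and known targets of p63 gave 1 call among 9 tested genes of 10, in PCa against WT. Fgfr2, a receptor for fibroblast growth factors that basal epithelium uses, was at 48.7, 28.7 and 60.6 CPM in WT, at 61.0 to 65.8 CPM in PIN and at 98.7 and 158 CPM in PCa. It rose in PCa against WT, by a log2 fold change of 1.48 ± 0.33 (SE; adjusted p = 0.0360, edgeR), and was not called in PCa against PIN. Cdkn1a, the p21 cell cycle inhibitor, was at 5.39 to 35.9 CPM in WT and 65.6 and 172 CPM in PCa (adjusted p = 0.0805, edgeR). Fras1, a basement membrane protein, was at 64.2 CPM in PCa 1 and 2.43 CPM in PCa 2 against 1.77 to 6.08 CPM in WT. Jag2, a Notch ligand, had the lowest fitted value at -0.68 ± 0.79. The median of the list was 0.13 in PCa against WT, and 0 of 9 were called in the other 2 comparisons.

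Ly6a was low in WT, at 38.8, 22.6 and 27.0 CPM, and higher in every lesion. The PIN libraries were at 468, 70.5 and 142 CPM and the PCa libraries at 481 and 313 CPM. No lesion library came down to a WT library, and PIN 1 stood with the tumors rather than with PIN 2 and PIN 3. In PCa against WT the adjusted p was 0.0250 (edgeR). In PIN against WT the log2 fold change was 2.94 ± 0.68 (SE), the gene ranked 20 of 14034 by p, and the adjusted p was 1 in edgeR but 0.00246 in DESeq2. Between PCa and PIN it was 0.81 ± 0.70 (adjusted p = 0.542, edgeR).

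The call of Ly6a in PCa rested on a small margin. Without WT 1, WT 2, WT 3 or PIN 3 the adjusted p was 0.0616, 0.0668, 0.0922 and 0.0519 (edgeR), while the log2 fold change stayed between 3.42 and 4.04 whichever library was left out. Sca-1 is also known from blood vessels and leukocytes. The summed CPM of 8 endothelial markers was 78.2 to 154 in WT, 116 to 154 in PIN, 139 in PCa 1 and 181 in PCa 2, with Emcn called lower in PCa against WT; that of 8 leukocyte markers was 36.3 to 83.2 in WT, 47.7 to 107 in PIN, 169 in PCa 1 and 23.8 in PCa 2, with none of the 7 tested called. In PCa 2, where Ly6a was at 313 CPM, the leukocyte sum was below and the endothelial sum above every WT library, and the part of either cell type in the level of Ly6a was not tested.

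The gene closest to Ly6a over the 8 libraries was its neighbor Ly6c1 (chr15:74875447-74879260), 47382 bases away. Likeness was the root mean squared difference between log2 CPM profiles, each centred on its own mean, and it was 0.310 for Ly6c1, 0.523 for Fxyd3 and 0.553 for Nms. Nms was at 2.74, 1.26 and 1.06 CPM in PIN 1, PCa 1 and PCa 2 and at 0 to 0.264 CPM elsewhere. It passed the filter only through libraries where Ly6a is high, so nothing is read from its likeness. Ly6c1 was at 10.4, 3.63 and 4.94 CPM in WT, at 140, 14.7 and 37.1 CPM in PIN and at 99.1 and 94.2 CPM in PCa, the same order of PIN libraries as Ly6a. It rose in PCa against WT by 3.94 ± 0.89 (SE, log2; adjusted p = 0.0370, edgeR). No stretch of 50 bases was shared between transcripts of Ly6a and Ly6c1. Ly6a shared 4.42% of its stretches of 50 bases with Ly6i or Ly6c2 and 0% of those of 100 bases, and Ly6c1 shared 31.9% and 15.4% with Ly6c2, so the value of Ly6c1 is less certain. Adding the counts of Ly6a, Ly6c1 and Ly6c2 gave a log2 fold change of 3.78 in PCa against WT, an alternative chosen after seeing the data.

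Of 15 other genes of the family, 7 had enough counts to be tested and Ly6c1 was the 1 called, with a list median of 1.92 in PCa against WT. Lypd3, a surface protein of squamous epithelium, was at 0.256 to 2.90 CPM in WT and 11.0 and 15.9 CPM in PCa (adjusted p = 0.0910, edgeR). Ly6e, the most abundant member in CPM, was at 687 to 1405 CPM in WT and 1603 and 1849 CPM in PCa (log2 fold change 0.70 ± 0.54 SE), and Lynx1, a modulator of acetylcholine receptors, was lowest at -0.13 ± 0.58. In PCa against PIN and PIN against WT, 0 of 7 were called.

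**Figure D4:**
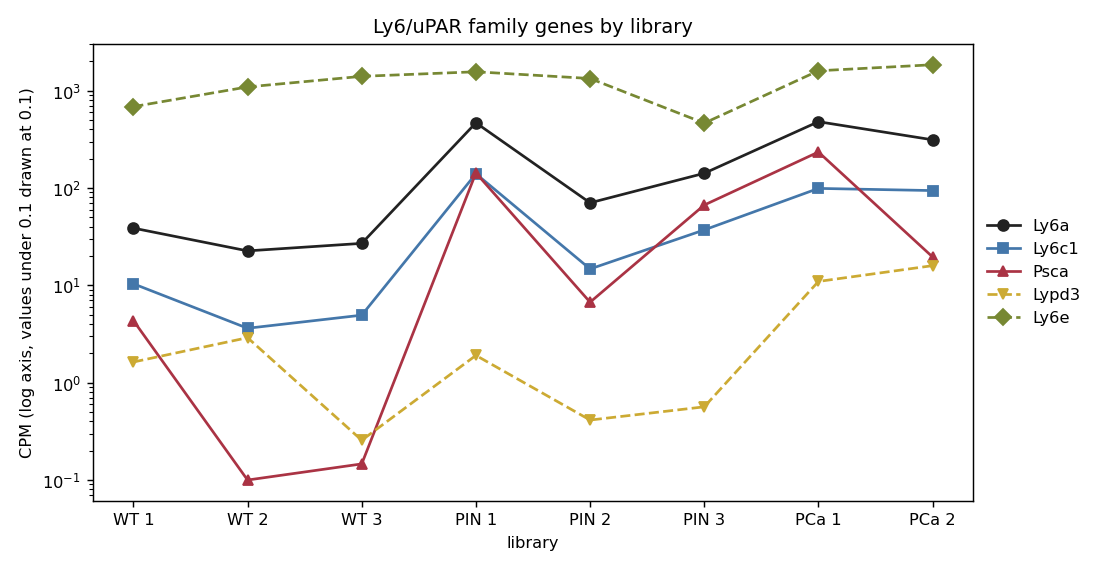
Ly6a, Psca and 3 relatives by library in CPM on a log axis, where lines join libraries only to help follow a gene and values under 0.1 are drawn at 0.1. Ly6a and Ly6c1 kept the same order among PIN libraries, with PIN 1 (468 and 140 CPM) above PIN 3 and PIN 2, as did Psca, while Ly6e was high in all 8 libraries.

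Psca had the widest span of the 8 genes. Its counts were 88, 0 and 4 in WT 1, 2 and 3, which is 4.35, 0 and 0.146 CPM; in WT 2, a count of 0 allows up to 0.136 CPM (3 counts, counting error only). PIN libraries were at 143, 6.72 and 66.9 CPM and PCa libraries at 235 and 19.6 CPM. Every lesion library lay above every WT library, yet PIN 1 and PIN 2 differed by 21.0-fold and the tumors by 11.9-fold on the CPM + 0.1 scale. Relative to WT, the log2 fold change was 5.62 ± 1.89 (SE) for PIN and 6.43 ± 2.01 for PCa, with adjusted p of 1 and 0.0875 (edgeR).

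The size of that difference hung on single libraries, since it ranged from 3.75 without PCa 1 to 10.57 without WT 1. In PCa against PIN it was 0.82 ± 1.68, and -1.87 without PCa 1. Psca is also a marker of bladder urothelium, and 5 uroplakin genes summed to 224 to 274 CPM in WT, 252 to 373 CPM in PIN, 67.1 CPM in PCa 1 and 141 CPM in PCa 2. Among them Upk2 was called higher in PCa against both other groups and Upk1b lower in PCa against PIN. WT 1, the control with most Psca, was also the control with seminal vesicle transcripts. The genes nearest to Psca were Kel, Cyp2b10 and B4galnt2, but at 1.23, 1.34 and 1.41 on the likeness scale they were farther from it than Ly6c1 was from Ly6a.

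Prom1 (chr5:44384864-44493271, minus strand) was lower in both tumors than in every other library. It was at 289, 376 and 334 CPM in WT, at 369, 419 and 494 CPM in PIN, and at 65.5 and 2.09 CPM in PCa (2034 and 61 counts). WT and PIN libraries differed by at most 1.30- and 1.34-fold within their groups, whereas PCa 1 exceeded PCa 2 by 29.9-fold, all on the CPM + 0.1 scale. Only 2.37% of tested genes had a wider gap between the tumors. The log2 fold change was -3.30 ± 1.15 (SE) against WT and -3.66 ± 1.18 against PIN, with adjusted p of 0.115 in both (edgeR).

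With 1 tumor left out, the log2 fold change was -2.33 against WT and -2.68 against PIN in PCa 1 alone, and -7.30 and -7.65 in PCa 2 alone. These fits take their spread from WT and PIN only and leave out the gap between the tumors, so no p-value is given for them. With both tumors, DESeq2 called Prom1 in both comparisons, at adjusted p of 0.00405 and 0.00137. Its nearest genes were Mmrn1, Egf and Rab38 (0.330, 0.370 and 0.407). Egf, an epidermal growth factor made by secretory epithelium, was at 609 to 1099 CPM in WT, 598 to 904 CPM in PIN, 149 CPM in PCa 1 and 6.03 CPM in PCa 2. Of the 8 luminal markers, 6 were lower in PCa 2 than in PCa 1, as Prom1 was, with a median difference of -0.996 on the log2 scale; the other 2, Pbsn and Tgm4, were at 60.8 and 373 CPM in PCa 2 and at 8.53 and 56.0 CPM in PCa 1. A share of 1.98% of the transcript's stretches of 50 bases lies in the antisense gene Gm16401, which held 166 counts in all.

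**Figure D5:**
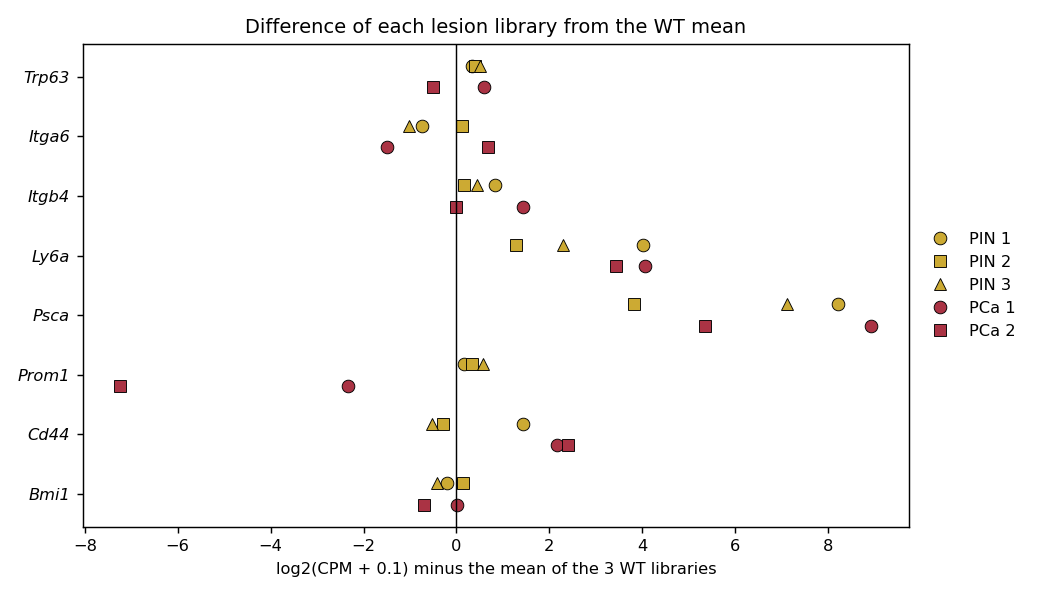
Difference of each PIN and PCa library from the mean of the 3 WT libraries, on the log2(CPM + 0.1) scale, for the 8 genes. The tumors lay on opposite sides of 0 for Trp63 and Itga6 and, with 1 tumor almost at 0, for Itgb4 and Bmi1, close together for Cd44 (2.17 and 2.41) and far apart for Prom1 (-2.34 and -7.24).

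Cd44 (chr2:102651298-102741822, minus strand) was the most even between tumors. It was at 17.5, 23.3 and 13.1 CPM in WT, at 47.6, 14.3 and 12.1 CPM in PIN, and at 78.8 and 93.4 CPM in PCa. Both tumors lay above every other library, PIN 1 came next, PIN 2 lay within the WT range and PIN 3 just below it. The tumors differed by 1.19-fold, and 76.2% of tested genes had a wider gap. The log2 fold change was 2.26 ± 0.58 (SE) against WT and 1.81 ± 0.58 against PIN, with adjusted p of 0.0533 and 0.114 (edgeR).

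The value against WT lay near the threshold. Cd44 was called under upper-quartile normalization, edgeR's newer quasi-likelihood method, limma-trend and DESeq2 (adjusted p = 0.0490, 0.0455, 0.0433 and 0.00238). It was not called without a filter, with filterByExpr, in a model of these groups alone or with a replicate block (0.0555, 0.0568, 0.0557 and 0.117, edgeR). Nor was it called without WT 1, WT 2 or WT 3 (0.122, 0.0852 and 0.153, edgeR), or without PIN 2 or PIN 3 (0.0696 and 0.0640). With PCa 1 or PCa 2 left out, the log2 fold change was 2.39 and 2.15. Without PIN 1 it was called against both WT and PIN, at adjusted p of 0.0200 and 0.0337 (edgeR). Leukocytes carry CD44 as well. Their summed markers were 169 CPM in PCa 1 and 23.8 CPM in PCa 2, and Cd44 was at 78.8 and 93.4 CPM in the same libraries. The part of leukocytes in the level of Cd44 was not tested. Anxa2, Mapkapk3 and Slc39a10 were the nearest genes (0.323, 0.350 and 0.355).

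Among 12 genes of hyaluronan turnover, CD44 ligands, CD44 linkers to actin and CD44 splicing factors, 10 were tested, 2 rose and 1 fell in PCa against WT. Spp1, osteopontin, a ligand of CD44, was at 0.110 to 0.346 CPM in WT, 0.226 to 0.620 CPM in PIN and 38.5 and 6.82 CPM in PCa (log2 fold change 6.84 ± 0.94 SE, adjusted p = 0.00971, edgeR); it too passed the filter only through the PCa libraries, where it is high. Hmmr, a hyaluronan receptor that also acts on the mitotic spindle, was at 1.63 to 2.23 CPM in WT and 19.7 and 34.3 CPM in PCa (3.87 ± 0.50, 0.00821). Both were also called higher in PCa against PIN, the 2 calls of that comparison. Ezr, ezrin, a linker of CD44 to actin, fell in PCa against WT from 1025, 2413 and 1670 CPM to 525 and 583 CPM (-1.62 ± 0.41, 0.0492). Has2, a hyaluronan synthase, had the lowest value at -2.06 ± 0.92 and was not called. The median of the list was 0.46 for PCa over WT and 0.42 for PCa over PIN, and 0 of 10 were called in PIN against WT.

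Bmi1 (chr2:18598645-18608256, plus strand) was within the WT range in all lesion libraries. It was at 30.4, 98.5 and 53.8 CPM in WT, at 47.6, 60.0 and 40.8 CPM in PIN and at 55.1 and 33.6 CPM in PCa. The widest spread was among the WT libraries, at 3.24-fold. Relative to WT, the log2 fold change was -0.46 ± 0.48 (SE) for PCa and -0.30 ± 0.42 for PIN (adjusted p = 0.581 and 1, edgeR), and without WT 2 these were 0.07 and 0.23. The nearest genes were mt-Nd1, Bbs12 and Ttc3 (0.166, 0.192 and 0.192).

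The list of 15 other Polycomb repressive complex 1 subunits and Cdkn2a, the locus that BMI1 is best known for silencing, gave 1 call against WT and 1 against PIN in PCa. Cdkn2a had 1, 1 and 0 counts in WT, 3, 17 and 2 counts in PIN, and 59 and 64 counts in PCa, and it rose in PCa against WT by 5.90 ± 1.22 (SE, log2; adjusted p = 0.0293, edgeR) from these few counts. It was over 1 CPM in the PCa libraries only and passed the filter through them, so it was tested only because it was high there. Cbx2, a subunit that binds methylated histone H3, was at 5.79 to 8.67 CPM in PIN and 31.2 and 22.4 CPM in PCa, called at 1.99 ± 0.44 against PIN (adjusted p = 0.0434, edgeR) and not called against WT (0.0748). Pcgf5 was lowest against WT, at -1.01 ± 0.49. The list's median was 0.63 for PCa over WT, 0.40 for PCa over PIN and 0.03 for PIN over WT, and 0 of 16 were called in the last.

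Other progenitor markers gave 2 calls among 13 tested genes in PCa against WT. Aldh1a1, an enzyme that makes retinoic acid and marks progenitors in several epithelia, was at 93.5, 22.4 and 82.1 CPM in WT, 383, 150 and 251 CPM in PIN and 377 and 425 CPM in PCa, and Kit, the stem cell factor receptor, was at 1.68 to 8.21 CPM in WT and 17.9 and 57.9 CPM in PCa. They rose in PCa by 2.60 ± 0.60 and 2.80 ± 0.69 (SE, log2; adjusted p = 0.0402 and 0.0478, edgeR). Prom2, a paralog of Prom1, was at 85.7, 6.07 and 12.2 CPM in WT and 534 and 551 CPM in PCa (3.97 ± 1.26, adjusted p = 0.0908, edgeR), opposite in direction to Prom1. Sox2, a transcription factor of stem cells, was among the lowest at -1.34 ± 1.15. The median of the list was 1.83 for PCa over WT and 0.62 for PCa over PIN, with 0 of 13 called in PCa against PIN or PIN against WT.

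Per transcript length, the order of the 8 genes differed between the groups. In WT, Prom1 stood first at 220 ± 26.1 TPM (SD, n = 3), followed by Itga6 at 113.5 ± 44.3 and Ly6a at 110 ± 40.7, then Bmi1 at 44.0 ± 18.9, Itgb4 at 15.9 ± 7.04, Trp63 at 11.1 ± 3.06, Cd44 at 7.70 ± 1.06 and Psca at 5.59 ± 9.18. The ranges of Itga6 and Ly6a, of Itgb4 and Trp63 and of Cd44 and Psca overlapped, and the other neighbors in that order were apart. In PIN, Ly6a led at 944 ± 896 TPM (n = 3), before Prom1 at 321 ± 37.2 and Psca at 286 ± 276, all 3 overlapping, and Psca overlapped with Itga6 at 89.1 ± 41.7; Bmi1, Itgb4, Trp63 and Cd44 followed at 42.5 ± 9.80, 23.7 ± 5.64, 16.3 ± 0.525 and 12.3 ± 10.1. Among these 4, Cd44 overlapped with both Trp63 and Itgb4, and the other neighbors were apart.

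In PCa, Ly6a was first at 1877 ± 511 TPM (SD, n = 2), apart from Psca at 569 ± 676. All later neighbors overlapped, from Itga6 at 138 ± 127 through Cd44 at 49.0 ± 7.22, Bmi1 at 43.2 ± 13.7, Itgb4 at 34.9 ± 22.0 and Prom1 at 28.6 ± 37.8 to Trp63 at 15.5 ± 7.68. Prom1 thus stood highest in WT, and Ly6a stood highest in PCa, where it led in both tumors. The place of Prom1 by its PCa mean held in neither tumor. In PCa 1 Prom1 was at 55.3 TPM, below Ly6a and Psca only and close to Bmi1 at 52.8 TPM. In PCa 2 Prom1 was at 1.84 TPM, the lowest of these genes.

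Among the 8 genes, the closest pairs on the likeness scale were Trp63 with Itgb4 at 0.483 and Trp63 with Bmi1 at 0.495. Over all tested genes, those nearest to Trp63 were Mgat4a at 0.145, Bbx at 0.150 and 2410091C18Rik at 0.168, and 76.9% of all were within 1 of it. Itgb4 had Tctn2, Rdh12 and Pdlim2 as its nearest genes (0.192, 0.192 and 0.207) and Itga6 had Arhgap31 and Mrps18a (0.318 and 0.339). Between the tumors, 6 of the 8 genes were lower in PCa 2 than in PCa 1 and 2, Itga6 and Cd44, were higher. The differences ran from -4.90 for Prom1 to 2.17 for Itga6 on the log2 scale, against a median gap of 0.61 over all tested genes.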

How the data were processed

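Total RNA from 8 mouse prostate libraries was sequenced after removal of ribosomal RNA. Per the labels, the authors trimmed adapters with cutadapt 1.9.1, aligned reads to mm9 with HISAT2 2.1.0 and counted them per gene with HTSeq 0.6.1; the deposited values are raw counts. The strand setting and annotation release are not given in the sources used here. The deposited exon length of each gene, another kind of value, served for TPM.

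The analysis used edgeR 4.0.16 in R 4.3.3: genes over 1 CPM in at least 2 samples were kept, library sizes were scaled by the trimmed mean of M-values, and a quasi-likelihood model of 3 groups was fitted to all 8 libraries (5 residual degrees of freedom, common biological coefficient of variation 0.489). P-values were adjusted over all tested genes by the Benjamini-Hochberg method and cover the spread between these libraries. The scripts were tested on simulated counts. The paper's methods name normalized values as input; counts were used because the test models counts.

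Members, marker lists and role lists were chosen with earlier results of these data known. From each list, the 2 highest and 2 lowest genes in PCa against WT and any called gene could be named, and for each member the 3 genes of most similar profile; for marker lists the text names called genes. A few genes that this rule names, and the identity of the transgene, are not reported here. One listed symbol, Zeb1, was on 2 rows of the table and was left out. Gene spans were compared with GENCODE for NCBIM37 (mm9), which gave the same span for all 8 members. Alternatives were DESeq2 1.42.0, upper-quartile normalization, filterByExpr, no filter, a model of the 2 groups compared, a replicate block, edgeR's newer quasi-likelihood method, limma-trend (limma 3.58.1), no fold limit and leaving out each library; summing Ly6a with its neighbors was added after seeing the data.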

Additional observations from a re-analysis of the deposited data

How the results depend on the processing

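The number of the 8 genes called in PCa against WT, 1 (Ly6a), was 2 under upper-quartile normalization (with Cd44), 2 with edgeR's newer quasi-likelihood method (with Cd44), 3 with limma-trend (with Prom1 and Cd44), 4 with DESeq2 (with Psca, Prom1 and Cd44), and 0 to 2 when a library was left out. In PCa against PIN the count of 0 became 2 with DESeq2 (Prom1 and Cd44), 1 with limma-trend (Prom1) and 0 to 1 when a library was left out. In PIN against WT the count of 0 became 1 with DESeq2 (Ly6a) and stayed 0 when any library was left out. A replicate block, fitted as an alternative, gave 2 calls in PCa against WT (Ly6a and Psca). It left Cd44 uncalled at a log2 fold change of 1.97 (adjusted p = 0.117, edgeR). Among genes of the 6 role lists it gave 3 calls against WT and 0 against PIN, in place of 8 and 3. Libraries of the same number had residuals correlated at 0.0992 on average (-0.0562 to 0.284), and those of different numbers at -0.0505. Residuals were taken from group means, so those of PCa 1 and PCa 2 mirror each other and this check could not decide on pairing. The labels give replicate numbers but name no pairing of animals, and none was used in the main model. Of 411 fitted differences of members under alternatives, 376 kept their direction and side of the threshold, 18 newly passed it, 4 no longer passed it and 13 changed sign. All of the last were uncalled values with 1 library left out, and the log2 fold changes then ranged as follows. In PCa against WT, leaving out libraries gave -0.51 (without PCa 1) to 0.60 for Trp63, -1.61 to 0.56 for Itga6 (positive without PCa 1 and, at 0.33, without WT 2), -0.065 (without PCa 1) to 1.38 for Itgb4 and -0.85 to 0.074 (without WT 2) for Bmi1. In PCa against PIN they gave -0.91 to 0.21 (without PCa 2) for Trp63, -1.01 (without PCa 2) to 1.16 for Itga6, -0.51 (without PCa 1) to 0.94 for Itgb4, -1.87 (without PCa 1) to 1.81 for Psca and -0.54 to 0.18 for Bmi1 (positive without PCa 2 and, at 0.0058, without PIN 2). In PIN against WT they gave -0.46 (without PIN 1) to 0.78 for Cd44 and -0.62 to 0.23 (without WT 2) for Bmi1. Over all genes, calls in PCa against WT numbered 1198, from 130 (a model of these groups alone) to 2487 (DESeq2); in PCa against PIN 803, from 78 (without PIN 3) to 2251 (without PCa 1); and in PIN against WT 0, with 39 by DESeq2 and 492 genes at an unadjusted p under 0.05. What caused these shifts was not tested. Without 1 tumor, PCa is a single library that is assumed to vary like the other groups. With 2 tumors, the spread between them limits every value for PCa, and counts of 0 to 88 limit Psca in WT.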

Other observations

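A gene of the progenitor list, Lgr5, set the tumors farther apart than any member did. Lgr5, a receptor of Wnt-responsive stem cells, named here after its values were seen, was at 28.9, 60.0 and 46.5 CPM in WT, 15.9, 40.0 and 16.0 CPM in PIN, 0.129 CPM in PCa 1 and 321 CPM in PCa 2. PCa 2, the tumor with 6.72 CPM of summed basal keratins and 2.09 CPM of Prom1, thus held the highest Lgr5 level of the series, and PCa 1 the lowest. The gene was not called in any comparison (PCa against WT log2 fold change 1.83 ± 1.67 SE, adjusted p = 0.523 in edgeR's quasi-likelihood test).

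PIN 1 held the highest PIN level of Ly6a, Psca, Cd44 and Itgb4 among the members and of Ly6c1 outside them. It held the lowest PIN level of Trp63 and Prom1 and the middle one of Itga6 and Bmi1. Krt4, a keratin of intermediate and proximal duct cells, also named after its values were seen, was at 35.5 CPM there against 2.86 and 5.73 CPM in PIN 2 and PIN 3 and 1.31 to 4.99 CPM in WT.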
